A study of Homo sapiens with 8 samples.

Results

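The androgen-responsive program of prostate luminal cells was described through 8 genes, KLK2, KLK3, TMPRSS2, FKBP5, ACPP, FOXA1, SLC45A3 and STEAP2, taken by name from the 23391 genes of the deposited count table. RNA was sequenced from DU145, an androgen-independent human prostate cancer cell line, in 8 libraries with 2 biological replicates for each of 4 groups. DU145-pc3.1 cells carry the empty pcDNA3.1-zeo vector and DU145-Esrrb cells carry the same vector with Esrrb, the estrogen related receptor beta, an orphan nuclear receptor. Both are zeocin-selected pools of stably transfected cells rather than clones, and both were studied with vehicle, called untreated here, and with 3 μM DY131, a synthetic agonist of estrogen related receptors beta and gamma. RNA was collected from cells in medium with charcoal-stripped serum, with and without DY131. Steroid hormones are depleted in this serum, and the length of the DY131 treatment is not given in the labels. The p-values of the main tests rest on 1 spread per gene, estimated from the replicates of all 4 groups together. Over the tested genes, replicates differed most in DY131-treated DU145-pc3.1 cells, at a chi-square per degree of freedom of 7.3. It was 2.67 in DU145-pc3.1, 1.83 in DU145-Esrrb and 1.29 in DY131-treated DU145-Esrrb cells.

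In luminal cells of the prostate, androgen drives genes of secretion and transport through DNA sites called androgen response elements. FOXA1 opens chromatin at these sites as a pioneer factor. The best known of the driven genes is KLK3, which encodes prostate-specific antigen. The glucocorticoid receptor (NR3C1) binds closely related elements, and FKBP5 is induced by glucocorticoid as well as by androgen. Estrogen related receptors bind a different element, built around AAGGTCA.

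The libraries held between 7858743 and 11551690 counted reads, 81711140 in all. The DY131-treated DU145-Esrrb libraries were the shallowest, with 7858743 and 9054498 reads. They also had reads for the fewest genes, 15690 and 15840, against 16500 to 16876 in the others. The part of this difference in depth in the results was not tested. A count of 3 reads, used as the detection floor, corresponded to between 0.260 and 0.382 counts per 1000000 counted reads (cpm) in a single library and to 0.0367 cpm over the 8 libraries together. Floors and intervals cover counting error only. ESRRB, the transfected gene, had 104 and 99 reads in DU145-Esrrb cells and 105 and 143 reads in DY131-treated DU145-Esrrb cells. Each DU145-pc3.1 library had at most 3 reads, so the libraries went with their vector labels, while the DY131 labels were not checked by this gene. In cpm ESRRB was higher with DY131 in DU145-Esrrb cells, at 14.9 against 8.96. The log2 change was 0.74 (edgeR quasi-likelihood F test, adjusted p = 0.00315). The part of this difference in the other changes was not tested. Luminal epithelial keratins and adhesion genes (KRT8, KRT18, KRT19, CDH1, EPCAM) together reached between 2501 and 3163 cpm, all 5 were tested, and of 6 basal markers KRT5, KRT14 and TP63 were never above the floor. The other basal markers were expressed, with means of 2.31 cpm for KRT15, 118 cpm for ITGB4 and 274 cpm for ITGA6, and the basal list summed to between 346 and 547 cpm, with the highest sums in DY131-treated DU145-pc3.1 cells. Of 5 leukocyte markers 3 were never above the floor, PTPRC and CD3E among them, and the list still summed to between 59.7 and 94.0 cpm, mostly CD68. Of 4 endothelial markers CDH5 and TEK were never above the floor, while PECAM1 and VWF had 39 and 18 reads in all. Of 6 fibroblast and 6 neuroendocrine markers 5 each were never above the floor. The part of these markers in the results was not tested.

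NR3C1, the glucocorticoid receptor, was between 211 and 256 cpm in the 8 libraries. HOXB13, a homeobox factor that marks prostate epithelium, had 0 reads in all 8 libraries.

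KLK2, KLK3, TMPRSS2 and ACPP, which encode secreted and surface proteins of differentiated luminal cells, were undetected or below the floor. KLK3 (NM_001030047, chr19:50854915-50860764 of GRCh38, plus strand) encodes a kallikrein protease of seminal fluid and had 0 reads in each of the 8 libraries. KLK2 (NM_001002231, chr19:50861568-50880567, plus strand), its neighbour and closest relative, also had 0 reads in each of the 8 libraries. A pooled count of 0 allows up to 0.0367 cpm at the floor of 3 counts, and the upper 95% Wilson limit was 0.0470 cpm. The transcripts of KLK2 and KLK3 shared only 0.393% and 0.681% of their 50-base windows with each other, so reads of either gene could nearly always be assigned.

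TMPRSS2 (NM_001135099, chr21:41464551-41531116, minus strand), an androgen-induced membrane serine protease, had 1 and 0 reads in DU145-pc3.1, 0 and 0 in DU145-Esrrb, 0 and 1 in DY131-treated DU145-pc3.1, and 1 and 1 in DY131-treated DU145-Esrrb cells. Its total of 4 reads was 0.0490 cpm, with an interval of 0.0190 to 0.126 cpm. ACPP (NM_001099, chr3:132317367-132368298, plus strand), which encodes prostatic acid phosphatase, had 1 and 1 reads in DU145-pc3.1, 1 and 2 in DU145-Esrrb, and 0 in all 4 DY131-treated libraries. Its total of 5 reads was 0.0612 cpm, with an interval of 0.0261 to 0.143 cpm. No library held 3 reads of either gene, so no difference between the 4 groups was detectable at this depth. The differentiated luminal markers KLK2, KLK3, ACPP and TMPRSS2 were thus undetected or below the floor in these prostate cells. SLC45A3, also taken as a marker of differentiated luminal cells, was above the floor in all 8 libraries, and the epithelial keratins were expressed.

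**Figure D1:**
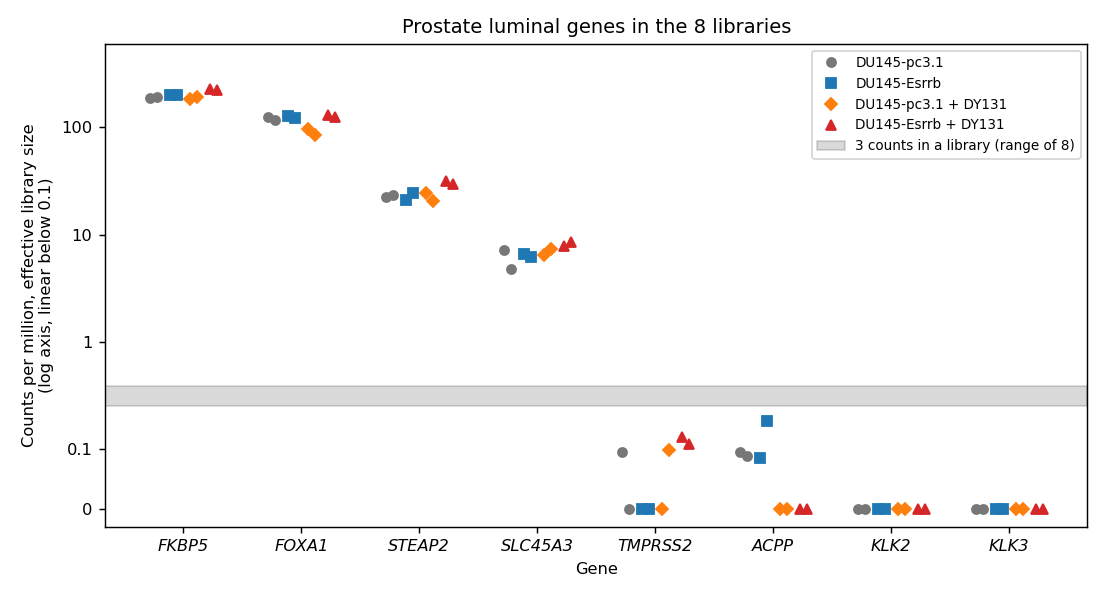
Level of each of the 8 genes in the 8 libraries, in cpm of the effective library size on a log axis that is linear below 0.1; each point is 1 library, colour and shape give the group, and the grey band spans the level of 3 counts in a library. FKBP5, FOXA1, STEAP2 and SLC45A3 lie above the band in all 8 libraries, whereas TMPRSS2, ACPP, KLK2 and KLK3 lie below it in all 8.

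The 5′ sequences of these genes show what the silent and the expressed genes carry before their RefSeq starts. Sequences are from RefSeq on GRCh38.p14, 250 bases before each RefSeq start, and 7 of the 8 genes were matched, ACPP under its current symbol ACP3. TMPRSS2 was not matched. The RefSeq start is not always that of the GENCODE transcript whose span is given for a gene, and the stretches of KLK2, FOXA1 and STEAP2 lie inside those spans, and that of ACPP does in part. Upstream of KLK3 (chr19:50854665-50854914, plus strand) and KLK2 (chr19:50873189-50873438, plus strand) capitals mark the proximal androgen response element of the kallikreins. In ACPP (chr3:132317157-132317406, plus strand) they mark the extended estrogen related receptor element.
KLK3: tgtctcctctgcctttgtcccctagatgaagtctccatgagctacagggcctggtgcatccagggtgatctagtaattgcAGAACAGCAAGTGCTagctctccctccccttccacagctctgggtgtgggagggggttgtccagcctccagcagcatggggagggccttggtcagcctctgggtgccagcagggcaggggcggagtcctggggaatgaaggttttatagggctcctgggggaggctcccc
KLK2: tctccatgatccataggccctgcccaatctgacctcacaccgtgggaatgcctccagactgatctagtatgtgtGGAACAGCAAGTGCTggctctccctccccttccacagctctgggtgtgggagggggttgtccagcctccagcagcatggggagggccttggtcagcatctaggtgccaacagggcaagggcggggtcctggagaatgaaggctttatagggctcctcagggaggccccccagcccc
ACPP: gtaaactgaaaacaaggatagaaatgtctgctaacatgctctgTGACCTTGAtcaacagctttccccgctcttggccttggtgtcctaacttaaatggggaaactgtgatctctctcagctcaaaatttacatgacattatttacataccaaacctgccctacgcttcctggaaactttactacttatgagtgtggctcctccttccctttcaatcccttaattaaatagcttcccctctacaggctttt

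The kallikrein element, searched on both strands as the 15 capital letters of KLK3 with any base at the first position, was found in 2 of 35116 RefSeq promoters of 300 bases (250 before and 50 after the start), or 0.0057%, and these were KLK3, with the element at -170 from the start, and KLK2, with it at -176. The elements differed by A1G, counted from the first base of the element, with the base of KLK3 first. This is the base left free in the search, so both genes were bound to be found. The share of promoters describes this 15-base pattern only, not androgen response elements in general. Over the aligned 250-base stretches, element included, 205 of 238 bases were identical (86.1%). The estrogen related receptor element TCAAGGTCA (reverse strand TGACCTTGA) was present in 0.353% of promoters and, of the 7 matched genes, in ACPP alone, at -207 from the start. Its core AAGGTCA, which lies within it, was in 3.92% of promoters and in no other matched gene of the 8. The palindromic androgen response element, which is the hexamer AGAACA followed by any 3 bases and by its reverse complement, was in none of the 7 and in 0.00285% of promoters. The hexamer alone, on either strand, was in 14.8% of promoters, among them KLK3, where it overlaps the kallikrein element, and FKBP5, at the start itself. KLK3 and KLK2 thus had 0 reads although the reference sequence holds this element, and ACPP, which holds the estrogen related receptor element, was below the floor with and without Esrrb.

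The genes also differed in the number of CG dinucleotides, which are dense at the starts of broadly expressed genes. In the 300-base promoters KLK3 and ACPP had 2 each, KLK2 and FKBP5 had 3 each, SLC45A3 had 26, STEAP2 28 and FOXA1 34, against a median of 14 over all promoters (quartiles 4 and 28). The 3 genes with most CG dinucleotides were all expressed and the 3 matched genes at or under the floor were CG-poor. FKBP5 had a CG-poor stretch at the RefSeq start used here and the highest level of the 8. Its level counts reads of the whole gene, whichever start they came from. Other starts of FKBP5 were not tested, so its level cannot be tied to this stretch. FKBP5 (chr6:35728584-35728833, minus strand) and FOXA1 (chr14:37595250-37595499, minus strand) are shown for the contrast in CG dinucleotides, with CG in capitals.
FKBP5: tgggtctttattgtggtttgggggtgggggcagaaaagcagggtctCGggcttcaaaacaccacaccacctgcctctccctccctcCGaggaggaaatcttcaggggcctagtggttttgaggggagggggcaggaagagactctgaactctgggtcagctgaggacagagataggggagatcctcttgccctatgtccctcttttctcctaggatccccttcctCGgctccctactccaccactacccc
FOXA1: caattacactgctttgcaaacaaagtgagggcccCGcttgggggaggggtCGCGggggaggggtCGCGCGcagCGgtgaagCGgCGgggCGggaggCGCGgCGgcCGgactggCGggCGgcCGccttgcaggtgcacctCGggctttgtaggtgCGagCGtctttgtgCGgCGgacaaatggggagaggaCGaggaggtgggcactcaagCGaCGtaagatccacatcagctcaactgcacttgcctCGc

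The other 4 genes were expressed in every library. Levels were compared between genes as RPKM, cpm divided by the transcript length in kilobases, with lengths from GENCODE 29. FKBP5 was highest at 51.1 ± 4.07 RPKM (mean ± SD of the 8 libraries), in the 92.7th percentile of the 22741 genes with a length. FOXA1 followed with 40.8 ± 5.81 RPKM in the 90.6th percentile. STEAP2 reached 3.74 ± 0.600 RPKM in the 57.2th percentile and SLC45A3 2.06 ± 0.340 RPKM in the 51.5th. Neighbours in this order did not overlap, since the lowest library of the higher gene exceeded the highest library of the lower gene in each of the 3 steps. TMPRSS2 and ACPP, at 0.0169 and 0.0181 RPKM, could not be ordered. The 8 genes thus split into a pair in the upper range of all genes, a pair near the middle and 4 genes at or under the floor.

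For comparisons between groups, genes reaching 1 cpm in 2 or more libraries entered the quasi-likelihood F test of edgeR, with p-values adjusted by Benjamini-Hochberg over the 13856 genes tested. FKBP5, FOXA1, SLC45A3 and STEAP2 passed this filter and KLK2, KLK3, TMPRSS2 and ACPP did not. With the fold change threshold of the study (absolute log2 fold change of at least 1 and adjusted p under 0.05), 0 of the 8 genes were called in any of 6 comparisons. By DESeq2 the count was 0 in the 6 comparisons as well, and by edgeR's exact test it was 0 in the 5 it was run for, all but the difference between the DY131 responses. Over all tested genes this rule called 0.577% for Esrrb against control, 4.19% for DY131 in DU145-pc3.1, 12% for DY131 in DU145-Esrrb, 8.21% for Esrrb against control with DY131, 12.8% for Esrrb with DY131 against untreated control and 6.28% for the difference between the DY131 responses. At an unadjusted p under 0.05 the 4 tested genes gave 0, 1, 2, 3, 3 and 3 in the same order, where 16.6%, 46.4%, 62.9%, 56%, 63.2% and 43.6% of all tested genes passed. The fitted changes of the 4 tested genes were thus below a doubling, and they are given at an adjusted p under 0.05 at any fold. For DY131 in DU145-pc3.1, where the fold rule called 4.19% of the tested genes, the study itself reported no altered gene.

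Esrrb alone did not move these genes measurably. In untreated cells 0 of the 4 tested genes had an adjusted p under 0.05, where 4.18% of all tested genes did. The log2 fold change was 0.08 for FKBP5 (95% interval -0.04 to 0.19), 0.05 for FOXA1 (-0.10 to 0.19), 0.10 for SLC45A3 (-0.32 to 0.52) and -0.01 for STEAP2 (-0.25 to 0.23), with adjusted p between 0.518 and 0.977. These intervals leave room for small changes, and for SLC45A3 for somewhat larger ones. FKBP5 stood at 200.4 and 201.3 cpm in the DU145-Esrrb libraries and at 189.4 and 191.2 cpm in DU145-pc3.1, so the groups did not overlap, as was the case for 51.6% of all tested genes.

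FOXA1 (NM_004496, chr14:37589984-37596059, minus strand) was the gene of the 8 that fell with DY131 in cells without Esrrb. It was at 126.0 and 117.8 cpm in DU145-pc3.1, 129.1 and 122.8 cpm in DU145-Esrrb, 96.4 and 85.5 cpm in DY131-treated DU145-pc3.1, and 131.6 and 123.9 cpm in DY131-treated DU145-Esrrb cells. Both DY131-treated DU145-pc3.1 libraries lay below the other 6, which overlapped one another. In bulk RNA, fewer cells expressing a gene and less RNA per cell cannot be told apart. The group means were 121.9 ± 5.83 and 90.9 ± 7.66 cpm (SD, n = 2) without and with DY131 in DU145-pc3.1, a log2 fold change of -0.42 (SE 0.0712, edgeR quasi-likelihood adjusted p = 2.77e-04) or 0.747 of the untreated level. It was the only 1 of the 4 tested genes at an adjusted p under 0.05 in this comparison, where 37.4% of all genes were (18.9% upwards and 18.5% downwards), and 65.6% of all genes had groups that did not overlap. FKBP5 (-0.01, adjusted p = 0.889), SLC45A3 (0.21, 0.448) and STEAP2 (-0.01, 0.941) did not pass the test there.

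In DU145-Esrrb cells FOXA1 did not show this fall, with a log2 fold change of 0.02 on DY131 (SE 0.0703, adjusted p = 0.83). The difference between the responses, tested as an interaction in edgeR's model, was 0.44 (SE 0.10, adjusted p = 0.00345), and with DY131 in both pools FOXA1 was higher by 0.49 in DU145-Esrrb than in DU145-pc3.1 (adjusted p = 5.04e-05). FOXA1 overlaps an exon of TTC6 on the opposite strand, TTC6 is not listed in the table, and whether the counting used strand is not stated, so reads of the 2 genes cannot be told apart.

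Across genes, changes in the DY131-treated DU145-Esrrb libraries went with a property of the transcripts. Over 13606 genes, the log2 change on DY131 in DU145-Esrrb cells fell with the share of a transcript's 50-base windows that cross an exon junction (Spearman's rho -0.375, a description across genes, which are not independent). The median change was 0.27 in the 10% of genes with the lowest share and -0.56 in the 10% with the highest, while rho in DU145-pc3.1 cells was 0.0112. FOXA1 has a junction share of 1.74%, the 6th percentile of these genes.

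With the changes corrected for this share, a step chosen after the data were seen, FOXA1 was lower with DY131 in both pools. Its corrected log2 change was -0.38 in DU145-pc3.1 (edgeR adjusted p = 6.35e-04) and -0.25 in DU145-Esrrb (adjusted p = 0.00781), and the difference between these responses was 0.13 (95% interval -0.08 to 0.35, adjusted p = 0.366). The fall of FOXA1 in DY131-treated DU145-pc3.1 cells was therefore seen with and without the correction, and the different response of DU145-Esrrb cells only without it. Whether the junction pattern arose in the cells or in the libraries was not tested.

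**Figure D2:**
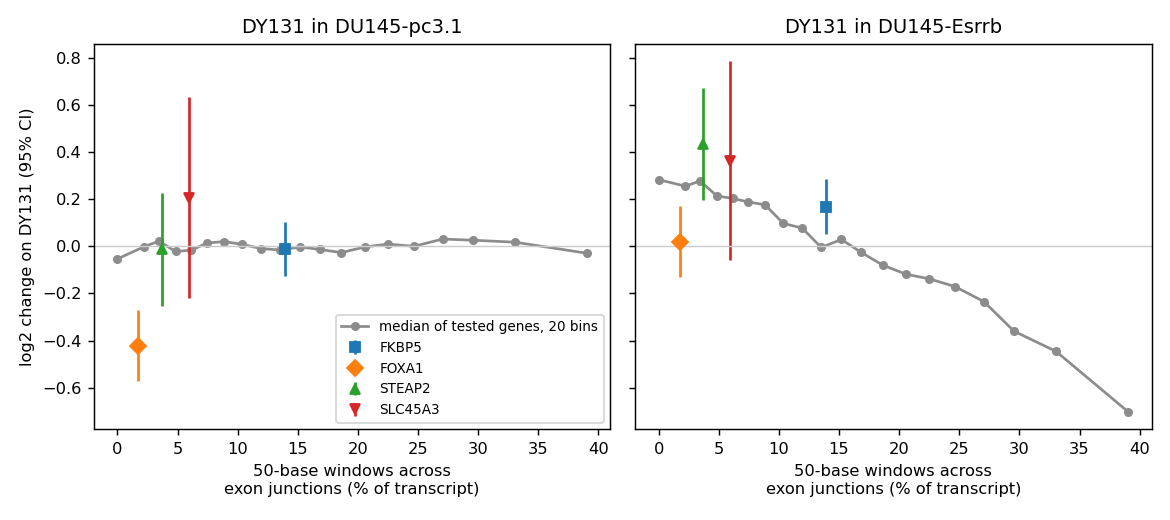
Log2 change on DY131 against the percent of a transcript's 50-base windows that cross exon junctions, in DU145-pc3.1 (left) and DU145-Esrrb cells (right); grey points are medians of the tested genes in 20 bins, and coloured points are the 4 tested genes with 95% intervals. The grey line is flat on the left and falls on the right, where FOXA1 lies below the line and FKBP5 above it.

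FKBP5 (NM_001145775, chr6:35573585-35728583, minus strand) encodes an immunophilin that sits with HSP90 in steroid receptor complexes. It was at 189.4 and 191.2 cpm in DU145-pc3.1, 200.4 and 201.3 cpm in DU145-Esrrb, 183.9 and 193.7 cpm in DY131-treated DU145-pc3.1, and 226.2 and 225.3 cpm in DY131-treated DU145-Esrrb cells. Both DY131-treated DU145-Esrrb libraries lay above the other 6, and the 2 DU145-pc3.1 groups overlapped. Between DY131-treated DU145-Esrrb cells and each other group, 72.7% to 82.3% of all tested genes did not overlap. The rise on DY131 in DU145-Esrrb cells was 0.17 on the log2 scale (SE 0.0547, edgeR adjusted p = 0.0154), from 200.9 ± 0.652 to 225.7 ± 0.657 cpm (SD, n = 2). It no longer passed the test when any 1 of the 4 libraries of these groups was left out, at a rise of 0.16 to 0.17 (adjusted p between 0.0748 and 0.0866), or with scaling by library size alone (0.11, adjusted p = 0.073).

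FKBP5 was also higher in DY131-treated DU145-Esrrb than in DY131-treated DU145-pc3.1 cells, by 0.26 (SE 0.0551, adjusted p = 0.00116), and higher than in untreated DU145-pc3.1 cells by 0.25 (SE 0.0550, adjusted p = 0.00124). The difference between its DY131 responses was 0.18 (adjusted p = 0.0864). Its junction share of 13.9% was near the median of 14.4%, and the corrected changes were 0.14, 0.23 and 0.22 for the first 3 comparisons (edgeR adjusted p = 0.0357, 0.00405 and 0.00277). The difference of FKBP5 between the pools under DY131 was thus about as large with the correction.

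STEAP2 (NM_001040665, chr7:90167590-90238137, plus strand) encodes a metalloreductase that reduces iron and copper. It was at 22.5 and 23.2 cpm in DU145-pc3.1, 21.1 and 24.3 cpm in DU145-Esrrb, 24.6 and 20.7 cpm in DY131-treated DU145-pc3.1, and 31.8 and 29.6 cpm in DY131-treated DU145-Esrrb cells. The first 3 groups overlapped, and both DY131-treated DU145-Esrrb libraries lay above them. Such separation of this group from each other group was seen for 72.7% to 82.3% of all tested genes, in either direction. The rise on DY131 in DU145-Esrrb cells, from 22.7 ± 2.29 to 30.7 ± 1.55 cpm (SD, n = 2), was 0.43 on the log2 scale (SE 0.111, adjusted p = 0.00353). Against untreated DU145-pc3.1 cells the rise was 0.42 (adjusted p = 0.0043), and the interaction was 0.45 (SE 0.159, adjusted p = 0.0411), which passed in 4 of 14 alternatives.

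With DY131 in both pools, STEAP2 was higher by 0.43 in DU145-Esrrb cells (SE 0.113, edgeR adjusted p = 0.00459). Its junction share was 3.73%, the 13.5th percentile. With the correction none of these changes passed the test, at 0.19 for DY131 in DU145-Esrrb cells, 0.17 against DY131-treated DU145-pc3.1 cells and 0.19 for the interaction (adjusted p = 0.163, 0.26 and 0.439). The rise of STEAP2 on DY131 in DU145-Esrrb cells also lost the threshold without DU145-Esrrb replicate 1 (0.33, adjusted p = 0.0611), and the difference under DY131 lost it without the first of the DY131-treated DU145-Esrrb libraries (0.38, adjusted p = 0.0546).

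SLC45A3 (NM_033102, chr1:205657851-205680459, minus strand) encodes prostein, a membrane transporter of prostate epithelium. It was at 7.15 and 4.84 cpm in DU145-pc3.1, 6.61 and 6.16 cpm in DU145-Esrrb, 6.44 and 7.33 cpm in DY131-treated DU145-pc3.1, and 7.82 and 8.59 cpm in DY131-treated DU145-Esrrb cells, from 55 to 78 reads per library. The highest levels of SLC45A3 were in the DY131-treated DU145-Esrrb libraries, which did not overlap the others. Between this group and each other group, 72.7% to 82.3% of all tested genes did not overlap. No comparison of SLC45A3 passed the test. DY131 changed it by 0.36 in DU145-Esrrb cells (95% interval -0.06 to 0.78, edgeR adjusted p = 0.129), and Esrrb with DY131 against untreated control gave 0.46 (adjusted p = 0.0598). Without DU145-pc3.1 replicate 1 the latter was 0.76 (adjusted p = 0.0148). Its junction share was 5.95%, and with the correction the value of 0.46 became 0.26 (adjusted p = 0.297).

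Counted over the comparisons, 2 of the 4 tested genes, FKBP5 and STEAP2, rose on DY131 in DU145-Esrrb cells at an adjusted p under 0.05, where 58.7% of all tested genes changed in either direction and 29.2% rose. With DY131 in both pools 3 of the 4, FKBP5, FOXA1 and STEAP2, were higher in DU145-Esrrb (50.4% of all genes differed, 25.1% upwards). Against untreated DU145-pc3.1 cells 2 were higher (59.3% of all genes, 29.1% upwards), and the interaction was past the threshold for 2 (33.7% of all genes, 16.1% upwards). Groups did not overlap for 82.3%, 72.7% and 81.5% of all tested genes in the first 3 of these comparisons. The comparisons share libraries, so their counts are not independent. The median log2 change of the 4 tested genes on DY131 in DU145-Esrrb cells was 0.26, beside -0.0045 over all tested genes. In the bins of junction share of FOXA1, STEAP2 and SLC45A3 the medians over genes were 0.25, 0.28 and 0.20. The median in the bin of FKBP5 was -0.0050. With the correction the 4 changes were 0.14 for FKBP5, -0.25 for FOXA1, 0.16 for SLC45A3 and 0.19 for STEAP2.

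**Figure D3:**
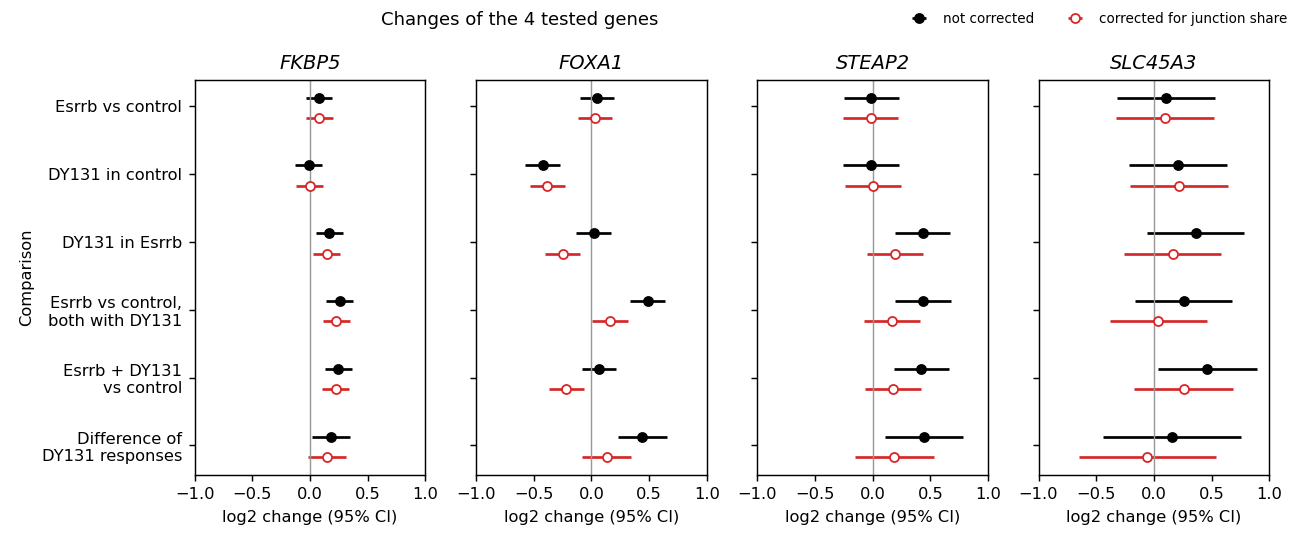
Log2 change with 95% confidence interval for FKBP5, FOXA1, STEAP2 and SLC45A3 in 6 comparisons, without (filled) and with (open) the correction for exon junction share; control is DU145-pc3.1. All intervals lie within a doubling or a halving (log2 of 1 and -1), and the open points of FOXA1 lie left of 0 for DY131 in both pools.

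Other androgen-induced genes behaved unevenly. Of 30 such genes 23 were tested, and KLK4, AZGP1, ADAM7, MAF and HPGD were never above the floor. On DY131 in DU145-pc3.1 cells 6 rose and 4 fell at an adjusted p under 0.05, and in DU145-Esrrb cells 8 rose and 5 fell, with list medians of -0.00023 and -0.023 on the log2 scale beside -0.0026 and -0.0045 over all genes. Over all tested genes 18.9% rose and 18.5% fell in the first comparison, and 29.2% rose and 29.5% fell in the second. PMEPA1, a membrane adaptor that limits TGF-beta signalling, rose by 1.30 in DU145-pc3.1 and 1.31 in DU145-Esrrb cells (edgeR adjusted p = 1.75e-07 and 5.86e-08). STEAP4, a relative of STEAP2, fell by 1.12 and 1.42 (adjusted p = 0.0154 and 0.00436), and without DU145-pc3.1 replicate 1 the former was -0.81 (adjusted p = 0.166). SGK1, a kinase induced by androgen and glucocorticoid, rose by 1.23 and 0.59 (adjusted p = 6.09e-06 and 0.00141).

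C1orf116, an androgen-regulated gene of little-known function, fell by 0.63 in DU145-pc3.1 and rose by 0.40 in DU145-Esrrb cells, an interaction of 1.03 (edgeR adjusted p = 5.22e-05). With the junction correction the rise was 0.15 (adjusted p = 0.188) and the interaction 0.76 (adjusted p = 8.56e-04). ABCC4, a transporter of cyclic nucleotides and drugs, was lower by 1.00 in DU145-Esrrb than in DU145-pc3.1 cells when both had DY131, which became -0.54 with the junction correction.

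Among 20 other genes of luminal prostate cells 13 were tested, and FOLH1, HOXB13, MSMB, GRHL2 and NPY were never above the floor. On DY131 in DU145-Esrrb cells 4 rose and 6 fell, beside 29.2% and 29.5% of all genes, and in DU145-pc3.1 cells 1 rose and 3 fell, beside 18.9% and 18.5%. CDH1, the epithelial cadherin, fell by 0.75 in DU145-pc3.1 and by 0.70 in DU145-Esrrb cells (edgeR adjusted p = 1.11e-04 and 1.60e-04), and DPP4, a surface peptidase, fell by 1.36 in DU145-Esrrb cells (adjusted p = 0.00789), which was -0.97 and no longer past the test with the correction. GATA2, a factor that works with FOXA1, rose by 0.58 in DU145-Esrrb cells (adjusted p = 4.10e-04).

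**Figure D4:**
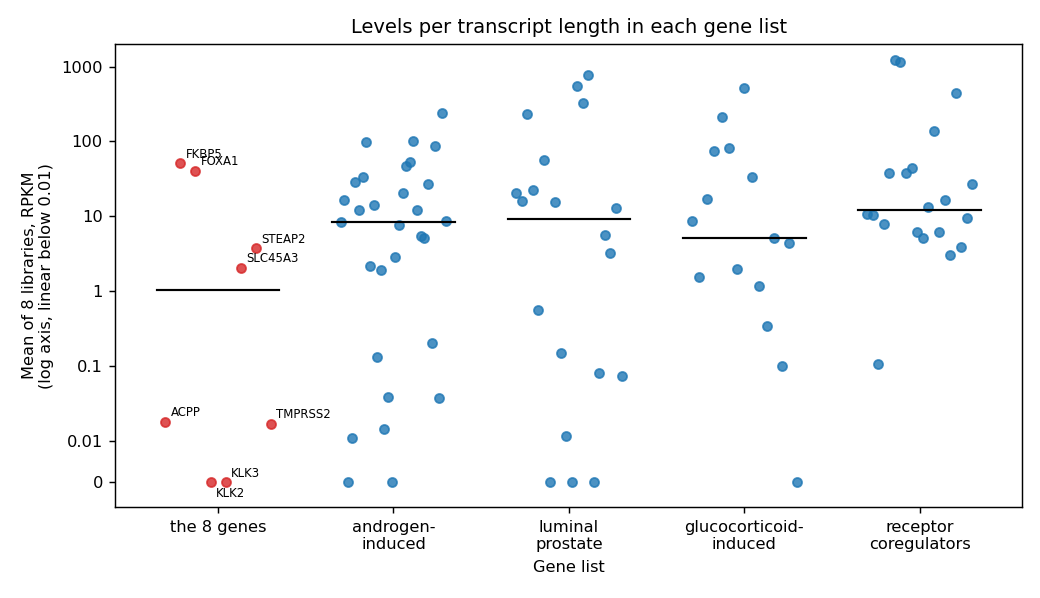
Mean level over the 8 libraries in RPKM (cpm per kilobase of transcript), on a log axis that is linear below 0.01, for the 8 genes and for 4 gene lists; each point is a gene, and the black bar is the median of the list. The 8 genes span from 0 to 51.1 RPKM, and every list has members both at the level of FKBP5 or above and far below 1 RPKM.

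Of 20 coregulators of steroid receptors 19 were tested, and DAXX, with 20 reads in all, was not. On DY131 in DU145-pc3.1 cells 9 rose and 0 fell, where 18.9% of all genes rose and 18.5% fell. In DU145-Esrrb cells 10 rose and 2 fell, where 29.2% of all genes rose and 29.5% fell. HSP90AA1 rose by 0.61 and 0.58, HSP90AB1 by 0.42 and 0.58 and FKBP4 by 0.52 and 0.49 in DU145-pc3.1 and DU145-Esrrb cells, all chaperones or cochaperones of steroid receptors, and each passed the test in both. FKBP4, the close relative of FKBP5 in these complexes, thus rose in both pools, whereas FKBP5 was at -0.01 in DU145-pc3.1. The histone demethylase KDM1A fell by 0.69 in DU145-Esrrb cells (edgeR adjusted p = 5.85e-07), where the corrected value was -0.31 (adjusted p = 0.00167), and was at 0.05 in DU145-pc3.1 cells (adjusted p = 0.589).

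Glucocorticoid-induced genes were read because FKBP5 is among the targets of that receptor. NR3C1 passed the test in none of the 6 comparisons without the junction correction. With it NR3C1 was lower in DY131-treated DU145-Esrrb cells than in DY131-treated and in untreated DU145-pc3.1 cells, with log2 differences of -0.27 and -0.29 (edgeR adjusted p = 0.0077 and 0.00267). Of 15 genes 13 were tested, with 2 up and 5 down on DY131 in DU145-pc3.1 cells (18.9% and 18.5% of all genes) and 2 up and 4 down in DU145-Esrrb cells (29.2% and 29.5%). KLF9, a Kruppel-like factor, fell by 1.76 and 0.86 (edgeR adjusted p = 1.07e-06 and 1.09e-04), and CEBPD, a leucine zipper factor, by 0.88 and 2.04 (adjusted p = 1.01e-04 and 3.42e-08). SGK1, shared with the androgen-induced list, rose, and ANGPTL4, a lipase inhibitor, rose by 0.94 in DU145-pc3.1 cells (adjusted p = 0.00142). CDKN1C, a cyclin-dependent kinase inhibitor, fell by 0.98 in DU145-pc3.1 and 1.02 in DU145-Esrrb cells (edgeR adjusted p = 0.0213 and 0.0142). These falls lost the threshold in 3 of 18 and 3 of 16 alternatives. In DU145-Esrrb cells the fall was 0.66 without the first DY131-treated library of that pool. FKBP5, at -0.01 and 0.17 in these comparisons, had neither of the falls of KLF9 and CEBPD.

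Relatives of the 8 genes were read family by family. Among 14 other genes named as kallikreins 1 was tested, KLK10. The 14 include KLKB1, plasma kallikrein, grouped with KLK2 and KLK3 by name. KLK10 went from 0.224 ± 0.181 cpm in DU145-pc3.1 to 1.06 ± 0.0446 cpm with DY131 (edgeR adjusted p = 0.0195), on 28 reads in all. This rise lost the threshold in 1 of 14 alternatives, without DU145-pc3.1 replicate 1. Neither FOXA2 nor FOXA3, the other genes of the FOXA family, was tested. All 4 relatives of STEAP2 were tested, and STEAP3, an endosomal ferrireductase, rose by 0.37 in DU145-pc3.1 and 0.53 in DU145-Esrrb cells on DY131 (adjusted p = 0.00145 and 2.71e-05). ST14, a membrane protease related to TMPRSS2, rose by 0.62 in DU145-pc3.1 and fell by 1.12 in DU145-Esrrb cells (adjusted p = 0.00676 and 6.70e-04). The rise of ST14 was 0.55 without DU145-pc3.1 replicate 2 (adjusted p = 0.0656) and 0.29 without DY131-treated DU145-pc3.1 replicate 2 (adjusted p = 0.0907). ACP1, a phosphatase of low molecular weight grouped with ACPP by name, fell by 2.52 in DU145-Esrrb cells (edgeR adjusted p = 3.19e-07). FKBP10, an immunophilin of the endoplasmic reticulum, rose by 0.48 in DU145-pc3.1 and fell by 1.61 in DU145-Esrrb cells (edgeR adjusted p = 0.00272 and 7.63e-08). FKBP2, another of that compartment, fell by 1.21 in DU145-Esrrb cells and by 0.55 with the correction. FKBP7 fell from 2.45 ± 0.767 to 0.872 ± 0.309 cpm on DY131 in DU145-pc3.1 cells (adjusted p = 0.00745), which no longer passed with DESeq2 (adjusted p = 0.0568) or without DU145-pc3.1 replicate 2 (-1.13, adjusted p = 0.102). FKBP1A and FKBP9 rose by 0.48 and 0.44 in DU145-Esrrb cells (adjusted p = 8.16e-06 and 5.55e-05), and were at 0.04 and 0.03 in DU145-pc3.1 cells. TMPRSS9, a serine protease, rose by 1.30 in DU145-Esrrb cells (adjusted p = 0.0346), which no longer passed the test without any 1 library of its groups, at a rise of 1.16 or more (adjusted p between 0.08 and 0.131).

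The tested genes whose log2 cpm followed each member most closely over the 8 libraries are given as a description. For FKBP5 these were BDNF (Pearson's r = 0.993), SDR42E1 (0.993) and PIGY (0.991), and for FOXA1 LOC84989 (0.989), NAP1L5 (0.985) and SNAP47 (0.982). For STEAP2 they were SLC38A2 (0.992), DMTF1 (0.984) and ZNF225 (0.981), and for SLC45A3 MBNL3 (0.977), TUB (0.942) and KIAA2026 (0.941). Of the 13855 genes compared, 629 exceeded 0.9 with FKBP5, 302 with STEAP2, 203 with FOXA1 and 17 with SLC45A3, and the points share libraries in 4 groups of 2.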

How the data were processed

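RNA of 8 cultures was sequenced as 50-base single reads from a stranded mRNA kit, with the 8 samples in 1 lane. Reads were filtered by the authors (FASTX-Toolkit) and aligned to hg18 (TopHat2), and the deposited values are raw counts per gene from MULTICOM-MAP, whole and not normalized. How that tool used strand or reads with several matches is not given in the sources used here. The headings of the DY131-treated DU145-Esrrb columns are identical and give no replicate number, and same-numbered libraries of the other groups did not deviate together (correlations 0.0917, 0.0229 and -0.0685).

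The 8 genes and the gene lists were chosen with earlier results of these data known. All 8 libraries entered 1 model with 4 groups in edgeR 4.0.16 (R 4.3.3), with TMM scaling, a filter of 1 cpm in 2 or more libraries and the quasi-likelihood F test. The study used edgeR's exact test, which was an alternative beside DESeq2 1.42.0. Cpm used effective library sizes, and floors and Wilson intervals used library totals. Positions, lengths and junction shares came from GENCODE 29 on GRCh38, not hg18, with 22019 genes matched by RefSeq identifier, 722 by symbol and 650 not matched. The junction correction used lowess offsets with a span of 0.3. Named were the 8 genes, called genes of the lists (at most 5 per list by size), ESRRB, and the 3 genes most alike each tested member. Other list genes (GATA2, NR3C1, FKBP4, the HSP90 genes, KDM1A, DAXX, STEAP3, FKBP1A, FKBP9 and the markers) were named after their values were seen. Some genes of the lists are counted but not reported here by name. The steps were tested on simulated counts.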

Additional observations from a re-analysis of the deposited data

Results flagged for a closer look

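The DY131 response differed between DU145-Esrrb and DU145-pc3.1 cells for FOXA1, by 0.44 on the log2 scale (edgeR quasi-likelihood interaction, adjusted p = 0.00345). In DU145-pc3.1 both DY131-treated libraries were lower than both untreated ones, and in DU145-Esrrb cells the groups overlapped. Over all tested genes, groups did not overlap for 65.6% and 82.3% in these comparisons. With the correction for exon junction share, chosen after the data were seen, the difference was 0.13 (adjusted p = 0.366). The response of STEAP2 differed by 0.45 (adjusted p = 0.0411, past the threshold in 4 of 14 alternatives), with both DY131-treated DU145-Esrrb libraries above the other 6, and with the correction the difference was 0.19 (adjusted p = 0.439). The part of the junction pattern in either difference was not tested beyond this correction.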

How the results depend on the processing

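The 4 tested genes were refitted in 6 comparisons under up to 18 alternatives: edgeR's exact test, DESeq2, DESeq2's size factors, library size alone, no filter, at least 10 counts in every library, only the libraries compared, each library left out, the replicate block and the junction correction, which was added after the data were seen. Of 392 such values 362 kept their side of the threshold, 17 of them with another sign while neither value was past it, 22 lost it, 6 gained it and 2 reversed. The fall of FOXA1 on DY131 in DU145-pc3.1 cells was past the threshold in 18 of 18 alternatives, from -0.50 to -0.34. With the junction correction, FOXA1 reversed to -0.25 for DY131 in DU145-Esrrb and -0.22 for Esrrb with DY131 against untreated control, and STEAP3 reversed to -0.024 for Esrrb against control with DY131. Without the fold threshold the counts of members called were 1, 2, 3, 2 and 2 in place of 0 for DY131 in DU145-pc3.1, DY131 in DU145-Esrrb, Esrrb against control with DY131, Esrrb with DY131 against untreated control, and the interaction. At any fold, the count of 2 for DY131 in DU145-Esrrb became 1 with library size alone and between 0 and 1 without single libraries of its groups. The count of 3 for Esrrb against control with DY131 became 1 with the junction correction. The count of 2 for the interaction became 1 with DESeq2, with library size alone, with at least 10 counts in every library and without 1 of 5 libraries, and 0 with the junction correction. The interaction of STEAP2 passed in 4 of 14 alternatives and that of FOXA1 in 13 of 14. The replicate block could be fitted to the 6 numbered libraries only, where FOXA1 fell by 0.42 with the block (adjusted p = 5.48e-04) and by 0.41 without it (adjusted p = 0.0013), and it changed no other call. Of the values of 29 list genes under these alternatives 2639 of 2796 kept direction and side. The causes of these shifts were not tested. With 2 libraries per group and at most 5 reads on KLK2, KLK3, TMPRSS2 and ACPP each, changes of these 4 genes could not be measured.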
